A study of Mus musculus with 9 samples.

Results

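The transcripts of 10 transcription factors that steer effector and memory fates of T cells were measured in CD4+ T cells sorted from the colon during T cell transfer colitis. The factors were taken by symbol from the deposited expression table, where they are spelled in capitals: PRDM1 (Blimp-1), ID2, ID3, ZEB2, BHLHE40, MAF, BCL6, TOX, BACH2 and ZFP683. Mouse spelling is used from here on. Of these 10, 9 have a row among the 23415 genes of the table. Zfp683, which encodes Hobit, a relative of the Prdm1 product, was not found there under its symbol or its RefSeq synonyms and was not analysed here.

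Donor cells were naive CD4+ CD25- CD45RBhigh T cells from CD160 knockout mice or from wildtype littermates, and all recipients were Rag1-/- mice, which have no T or B cells of their own. At the peak of disease, each library was made from 5000 CD4+ T cells of the colon. There were 4 CD160 knockout libraries and 5 control libraries. The labels do not state age, sex, the part of Cd160 that was deleted, or whether recipients were pooled or shared between libraries. All p-values therefore describe the variation among these libraries, which may be technical. Values of single libraries are given in replicate order.

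These factors work largely as opposed pairs. The repressor encoded by Prdm1, Blimp-1, drives terminal effector differentiation and represses Bcl6, and Bcl6, the lineage factor of follicular helper cells, represses Prdm1 in turn. Id proteins lack a DNA-binding region and hold E proteins, the activators that bind E-boxes, away from DNA. Id2 is linked to effector cells and Id3 to memory and follicular cells. Zeb2 binds E-boxes itself and promotes terminal effector cells, Bach2 restrains effector genes, and Tox is best known from exhausted CD8+ T cells.

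RefSeq sequence upstream of a transcription start (GRCm38.p6) was at hand for 6 of the 9 measured factors, in 10 windows of 250 bases. Sequences are shown for Zeb2, the member whose values separated the groups, and for the opposed pair Prdm1 and Bcl6. Capitals mark E-boxes, searched as CANNTG, a word that reads the same on both strands. The Zeb2 window (chr2:45117443-45117692, minus strand) and the Bcl6 window (chr16:23988853-23989102, minus strand) overlap no GENCODE transcript. The Prdm1 window (chr10:44458749-44458998, minus strand) overlaps 1 longer Prdm1 transcript and no exon, so it is intronic to that transcript.
Zeb2: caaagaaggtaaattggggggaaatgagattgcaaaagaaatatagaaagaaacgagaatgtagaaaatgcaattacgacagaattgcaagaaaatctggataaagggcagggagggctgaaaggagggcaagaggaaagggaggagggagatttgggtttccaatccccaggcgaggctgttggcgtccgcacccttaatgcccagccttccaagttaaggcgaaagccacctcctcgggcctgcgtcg
Prdm1: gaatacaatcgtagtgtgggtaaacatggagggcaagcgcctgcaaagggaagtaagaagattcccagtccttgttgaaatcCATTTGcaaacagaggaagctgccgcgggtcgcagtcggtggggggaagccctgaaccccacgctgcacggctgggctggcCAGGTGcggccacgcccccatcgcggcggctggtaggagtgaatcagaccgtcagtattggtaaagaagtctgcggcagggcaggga
Bcl6: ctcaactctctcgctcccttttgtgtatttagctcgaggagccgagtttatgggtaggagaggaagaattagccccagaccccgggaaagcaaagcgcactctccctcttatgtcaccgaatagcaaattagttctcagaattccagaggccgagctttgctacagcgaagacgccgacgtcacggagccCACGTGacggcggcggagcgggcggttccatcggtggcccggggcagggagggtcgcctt

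The Prdm1 window holds 2 E-boxes, of which one, CAGGTG, is the reverse complement of CACCTG, the form to which ZEB proteins bind. The Bcl6 window shown holds 1, CACGTG, the form to which Bhlhe40 binds, and the other Bcl6 window (chr16:23981284-23981533) holds none. The 4 Zeb2 windows hold none. Across 32851 promoter windows of the same length, 66.2% hold an E-box, 17.2% hold CACCTG on either strand and 6.02% hold CACGTG, so the matches describe the windows and do not show binding.

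Control replicate 1 stood apart from the other libraries. It had 7308 genes at 1 TPM (a level scaled by gene length and library total, so that every library has the same sum) or more, where the rest had at least 11088, and across genes it had a median Spearman correlation of 0.737 with the other libraries, against at least 0.936 for each of those. The summed TPM of the 9 measured factors was 204.1 in this library and lay between 994.0 and 1393 in the other 8. Differences of the factors are therefore given with and without it, and those of partner genes mainly without it. The log2 differences of all tested genes (knockout minus control) had a median of 0.46 with this library and of -0.014 when it was left out.

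The sorted cells carried the defining T cell markers: the 8 T cell markers summed to 3788 to 4930 TPM in knockout libraries, 4659 to 5419 TPM in control replicates 2 to 5 and 1724 TPM in control replicate 1. Without that library 7 of the 8 had negative differences, as did 6013 of all 11457 tested genes. Of the 8, 3 were lower with an unadjusted limma p under 0.05, against 4.41% of tested genes, and 0 with an adjusted one. Cd3g was lower in every knockout library than in control replicates 2 to 5, and 3.01% of tested genes separated in this direction. Macrophage markers were also abundant. The 10 macrophage markers, among them Lyz2, C1qa and Csf1r, summed to 8509 to 15240 TPM in knockout libraries and to 2353 to 9424 TPM in control replicates 2 to 5, with 1004 TPM in control replicate 1. All 10 had positive differences in both fits, where 86.7% of tested genes did with all libraries and 47.5% without control replicate 1. In each fit 8 of the 10 were higher with an unadjusted limma p under 0.05, against 5.78% and 8.44% of tested genes. None passed an adjusted p of 0.05. Without control replicate 1, 4 of 5 tested stromal and endothelial markers were also positive (median 0.93), as were 5 of 6 dendritic cell markers (median 0.47). Epithelial markers were positive for 2 of 4 (median 0.32), and NK and innate lymphoid markers for 1 of 3 (median -0.72). These lists had 0 genes past the adjusted threshold, and the part of such cells in the factor values was not tested. The 6 B and plasma cell markers summed to 2.45 to 12.9 TPM in knockout libraries and 0.84 to 8.07 TPM in controls, nearly all of it Cd79b, while Ms4a1 and Mzb1 were listed at 0 in every library. Cd160 itself lay between 5.44 and 18.8 TPM in knockout libraries and between 31.8 and 212.4 TPM in controls, with no overlap (exact two-sided permutation test, p = 0.0159). Its log2 difference was -2.79 with all libraries and -3.11 without control replicate 1. The adjusted limma p was 0.572 and 0.113, so Cd160 did not pass the adjusted threshold in either fit. Macrophages also express Zeb2, Maf, Bhlhe40 and Id3, and marker or covariate values are given beside each of these.

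The factors covered a wide range of levels in TPM, a scale on which different genes can be compared. Id2 was the most abundant, at 881.6 ± 124.9 TPM in knockout libraries (SD, n = 4) and 731.8 ± 320.2 TPM in controls (SD, n = 5). It lay above the 96th percentile of tested genes in every library, control replicate 1 included. Bhlhe40 came second, at 202.7 ± 69.1 and 166.8 ± 85.0 TPM. Each of these was separate from its lower neighbour in every knockout library and in control replicates 2 to 5.

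The middle of the order held Id3, Tox, Maf and Prdm1, whose ranges mostly ran into each other. In control replicates 2 to 5 their means were 24.4 TPM for Id3, 25.7 for Tox, 14.6 for Maf and 14.3 for Prdm1, and Tox exceeded Id3 in 2 of the 4 libraries. Zeb2 and Bcl6 followed. Bcl6 exceeded Zeb2 in 3 of the 4 control libraries other than replicate 1, whereas Zeb2 exceeded Bcl6 in all 4 knockout libraries. Bach2 was lowest in both groups, below the range of every other factor measured.

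**Figure D1:**
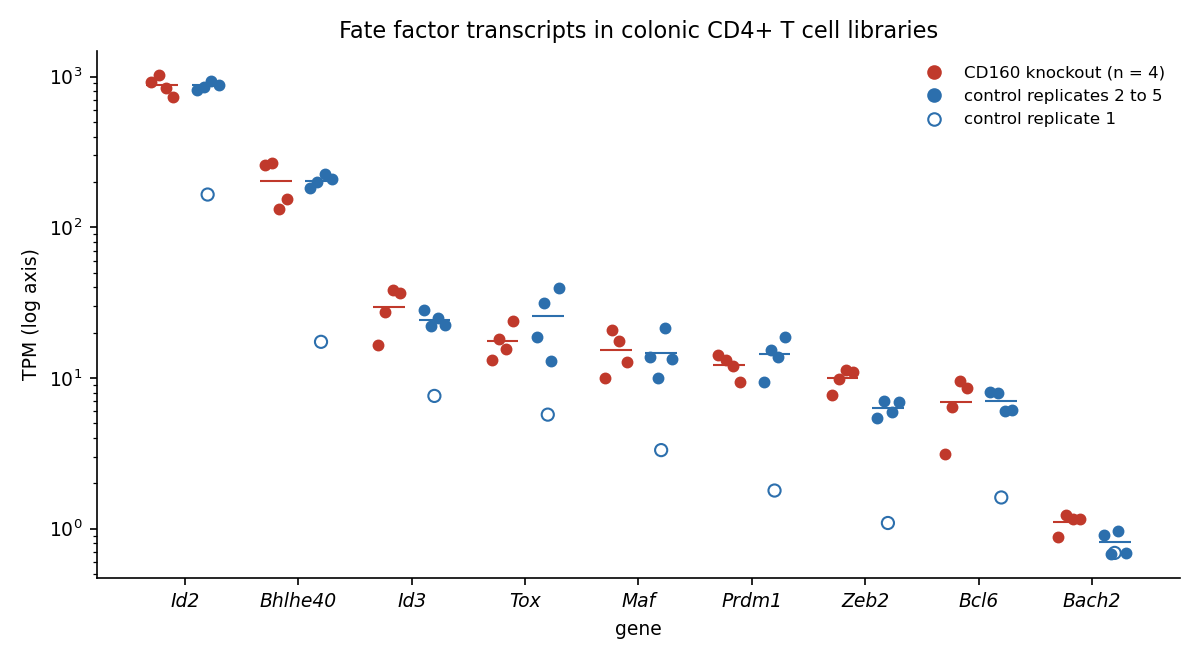
TPM of the 9 measured factors on a log axis in each library. Red points are CD160 knockout libraries, filled blue points control replicates 2 to 5 and open points control replicate 1, with lines at the means of the filled points; Zeb2 is the factor whose red and blue points separate, between 7.07 and 7.70 TPM.

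No factor passed the test adjusted over all genes in the unweighted fits. Of the 9 measured factors, 8 had at least 1 TPM in at least 4 libraries and entered the limma fit on log2(TPM + 1); Bach2 did not. With all 9 libraries, 0 of these 8 had an adjusted p under 0.05, where 0.0174% of all tested genes did, and 0 had an unadjusted p under 0.05, where 6.39% did (5.78% higher and 0.618% lower in knockout libraries). Without control replicate 1, 0 of 8 passed the adjusted threshold, against a background of 0.0262%, and 1 of 8, Zeb2, had an unadjusted p under 0.05, against 12.8% of all tested genes (8.44% higher and 4.41% lower). The exact permutation test with adjustment over all genes also called 0 of the 8 in either set of libraries. Differences were positive for 7 of 8 factors with all libraries, a direction shared by 86.7% of tested genes, and for 4 of 8 without control replicate 1, against 47.5%. The median difference of the 8 was 0.45 with all libraries and -0.034 without that library. Less transcript from fewer cells of a type and less transcript per cell cannot be told apart in bulk RNA.

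**Figure D2:**
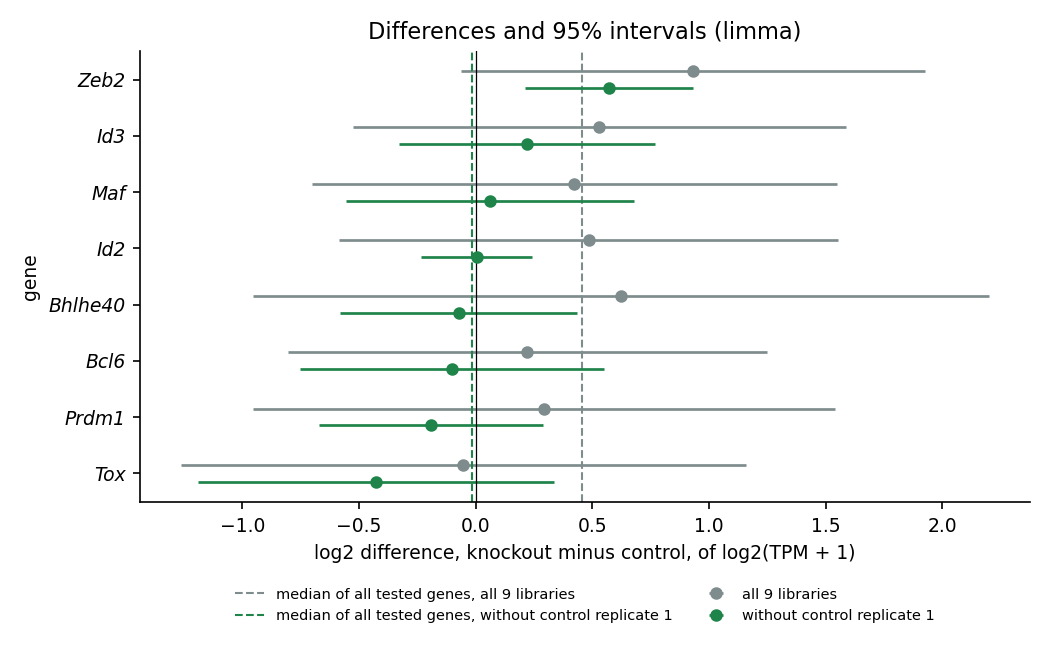
Log2 differences (knockout minus control, log2(TPM + 1)) of the 8 tested factors with 95% intervals from limma, in grey with all 9 libraries and in green without control replicate 1; dashed lines mark the median of all tested genes. In the green set the interval of Zeb2, from 0.21 to 0.93, lies above 0 and the other 7 include 0.

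Among the factors of terminal effector cells, Zeb2 was the one with higher values in knockout libraries. Zeb2 (chromosome 2, 44983512 to 45117442, GRCm38.p6) stood at 7.70, 9.87, 11.4 and 10.9 TPM across the knockout libraries. The controls had 1.09, 5.43, 7.07, 5.91 and 6.94 TPM. Every knockout library lay above every control library, though knockout replicate 1 and control replicate 3 were close. The groups separated in this direction for 1 of the 8 tested factors, against 3.88% of all tested genes with 9 libraries and 4.01% without control replicate 1. No factor separated in the other direction, in which 1.05% and 3.01% of tested genes did, so that 4.93% and 7.02% of genes separated either way.

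The knockout mean of Zeb2 was 9.95 ± 1.62 TPM (SD, n = 4) and that of control replicates 2 to 5 was 6.34 ± 0.797 TPM (SD, n = 4), a ratio of 1.57. On the log2 scale this was a difference of 0.57 (SE 0.16), and its adjusted limma p of 0.185 does not pass. Zeb2 ranked 360 of 11457 genes by p in that fit. With all 9 libraries the log2 difference was 0.93 (SE 0.45), with an adjusted p of 0.745. On Zeb2 alone, an exact permutation test (two-sided) gave p = 0.0238 with 9 libraries and p = 0.0286 with 8, the latter the smallest that 8 libraries allow. With 8 libraries every gene whose groups separate has this p, which is 7.02% of tested genes. Adjusted over all genes, the exact test gave Zeb2 p = 0.628 with 9 libraries and p = 0.407 with 8. Library weights nearly removed control replicate 1 (weight 0.0123) and called 521 of 11495 genes. The weights of the other libraries also differed, from 0.70 in control replicate 2 to 2.97 in control replicate 5. In that fit Zeb2 had a difference of 0.57 and passed, with an adjusted limma p of 0.0452. The unweighted fit without control replicate 1 called 3 genes, and Zeb2 was not among them.

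The separation of Zeb2 from control replicate 1 depended on the scale. By rank within the library, Zeb2 stood at percentiles 38.0 to 44.8 of tested genes in knockout libraries, at 29.6 to 33.8 in control replicates 2 to 5 and at 40.7 in control replicate 1, inside the knockout range. After median-of-ratios scaling, in place of the total, control replicate 1 came to 6.78, above knockout replicate 1 at 6.46. Control replicates 2 to 5 stayed below every knockout library, between 4.66 and 5.39.

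Macrophage markers moved with the knockout label, and their values can be set beside those of Zeb2. Control replicate 2, with 9424 TPM of summed macrophage markers, had 5.43 TPM of Zeb2. Knockout replicate 2, with 8509 TPM of these markers, had 9.87 TPM of Zeb2. The mean log2(TPM + 1) of the 10 markers, in which each marker weighs alike, was higher in knockout replicate 2, at 8.18 against 7.97. Among control replicates 2 to 5, the libraries with the least marker TPM, replicates 3 and 5, had the most Zeb2. Among knockout libraries, replicates 3 and 4 had the most Zeb2 and the highest marker means. Replicate 1 had the least Zeb2 and the lowest marker mean, while replicate 2 had the lowest marker sum, 8509 TPM against 10510 TPM in replicate 1. Across knockout replicates 1 to 4 the marker mean log2(TPM + 1) was 7.50, 8.18, 8.95 and 8.97, with Zeb2 at 7.70, 9.87, 11.4 and 10.9 TPM. Replicates 3 and 4 also had the highest marker sums of all libraries, 13710 and 15240 TPM. The part of macrophage RNA in the Zeb2 values was not tested beyond the covariate fits that follow. With the mean of the macrophage markers as a covariate and control replicate 1 left out, the log2 difference of Zeb2 was 0.54 (SE 0.23), with an adjusted limma p of 0.461. With the covariate and all 9 libraries it was 0.12 (SE 0.48), in a fit where the median of all genes was -0.44.

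**Figure D3:**
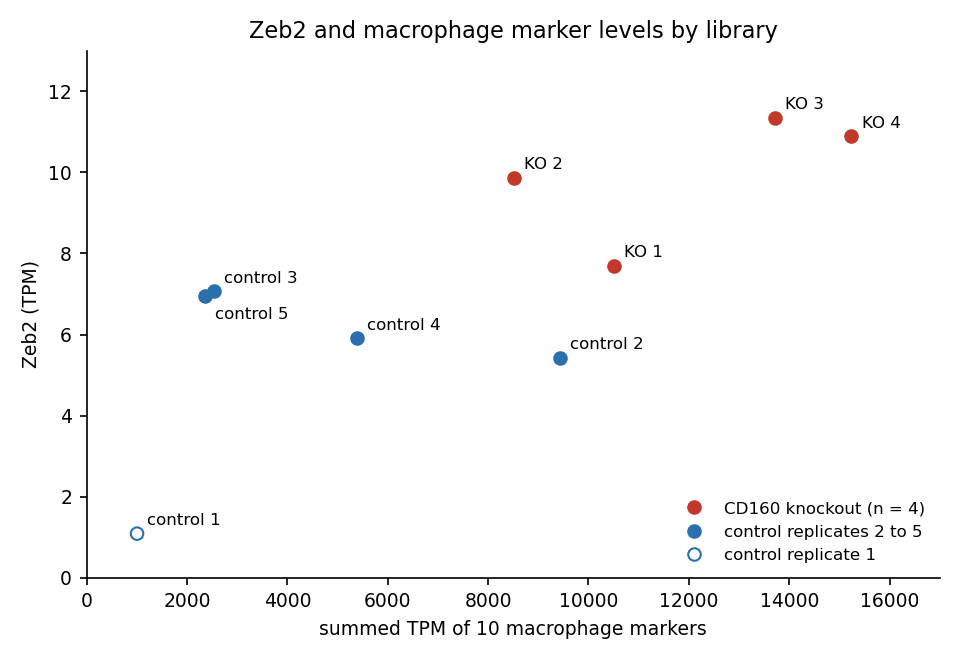
Zeb2 (TPM, vertical) against the summed TPM of 10 macrophage markers (horizontal) in each library, red for knockout, filled blue for control replicates 2 to 5 and open for control replicate 1. Control replicate 2 and knockout replicate 2 have marker sums of 9424 and 8509 TPM, with Zeb2 at 5.43 and 9.87 TPM. By the mean log2(TPM + 1) of the markers, not drawn, knockout replicate 2 is the higher, at 8.18 against 7.97. Knockout replicates 3 and 4 have both the highest sums and the highest Zeb2.

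The other effector factors showed no such separation. Prdm1 (chromosome 10, 44437174 to 44528558) stood at 14.3, 13.2, 11.99 and 9.38 TPM across the knockout libraries, against 1.79, 9.47, 15.4, 13.7 and 18.7 TPM across the controls. All knockout values lay within the control range, and all but replicate 4 within that of control replicates 2 to 5. Its log2 difference without control replicate 1 was -0.19, with a 95% interval from -0.67 to 0.29 and an adjusted limma p of 0.784. With that library it was 0.29, so the sign turned on 1 library.

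Id2 (chromosome 12, 25093799 to 25096092), abundant in effector T cells, did not separate the groups. It stood at 923.1, 1029, 838.6 and 735.3 TPM across the knockout libraries, against 164.9, 812.3, 857.5, 938.6 and 885.7 TPM across the controls. The knockout libraries lay on both sides of control replicates 2 to 5, with replicate 2 above them and replicate 4 below them. The log2 difference was 0.48 with control replicate 1 and 0.0042 without it, in the second case with a 95% interval from -0.23 to 0.24, the narrowest of the 8 factors.

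Bhlhe40 (chromosome 6, 108660629 to 108666925), a basic helix-loop-helix repressor needed for cytokine output of pathogenic helper T cells, varied more among knockout libraries (SD 69.1 TPM) than among control replicates 2 to 5 (SD 18.1 TPM), while over all 5 controls the SD was 85.0 TPM. The knockout libraries had 257.3, 266.5, 132.0 and 155.0 TPM, with replicates 1 and 2 above and replicates 3 and 4 below all of control replicates 2 to 5. The control libraries had 17.4, 182.3, 198.9, 225.0 and 210.5 TPM. The log2 difference was 0.62 with control replicate 1 and -0.072 without it, with a 95% interval from -0.58 to 0.44 in the second case. Knockout replicates 3 and 4 also had the highest macrophage marker sums, 13710 and 15240 TPM, and the part of other cells in this split was not tested.

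The memory and follicular factors Id3, Bcl6 and Bach2 had overlapping groups. Id3 (chromosome 4, 136143822 to 136145392) stood at 16.7, 27.6, 38.2 and 36.8 TPM across the knockout libraries, against 7.60, 28.2, 22.1, 24.9 and 22.3 TPM across the controls. Knockout replicates 3 and 4 were above every control and knockout replicate 1 was below control replicates 2 to 5. The log2 difference was 0.53 with control replicate 1 and 0.22 without it, in the second case with a 95% interval from -0.33 to 0.77 and an adjusted limma p of 0.784. With the macrophage marker covariate in that fit it was -0.36, where the median of all genes was 0.087.

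Bcl6 (chromosome 16, 23965050 to 23988866) was lowest in knockout replicate 1, at 3.12 TPM, and had 6.38, 9.51 and 8.57 TPM in the other knockout libraries. The control libraries had 1.61, 8.04, 7.92, 5.99 and 6.17 TPM. The knockout values lay on both sides of control replicates 2 to 5, and the log2 difference was 0.22 with control replicate 1 and -0.10 without it, in the second case with a 95% interval from -0.75 to 0.55. With the macrophage marker covariate in the second fit it was -0.63, with an adjusted limma p of 0.520, where the median of all genes was 0.087.

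Bach2 (chromosome 4, 32238413 to 32586109) was low throughout, with 3 libraries at 1 TPM or more, all of them knockout. It stood at 0.88, 1.24, 1.16 and 1.16 TPM across the knockout libraries, against 0.69, 0.91, 0.68, 0.97 and 0.69 TPM across the controls. Knockout replicate 1 lay below control replicates 2 and 4, so the groups overlapped. For Bach2 alone, an exact permutation test (two-sided) gave p = 0.0397 with 9 libraries and p = 0.0857 with 8. After median-of-ratios scaling control replicate 1 had the highest value of all, 4.29, against 0.950 at most in knockout libraries. No adjusted p exists for Bach2 in the filtered fit.

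Maf and Tox complete the set. Maf (chromosome 8, 115703253 to 115706894), an activator of Il10 and Il21 in helper T cells, stood at 10.02, 20.9, 17.5 and 12.8 TPM across the knockout libraries, against 3.32, 13.7, 9.92, 21.6 and 13.3 TPM across the controls. The groups covered almost the same range apart from control replicate 1. The log2 difference was 0.42 with that library and 0.062 without it, in the second case with a 95% interval from -0.55 to 0.68. With the macrophage marker covariate it was -0.58 and -0.30, in fits where the median of all genes was -0.44 and 0.087.

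Tox (chromosome 4, 6686353 to 6991557) stood at 13.1, 18.1, 15.5 and 24.0 TPM across the knockout libraries, against 5.71, 18.7, 31.7, 12.9 and 39.8 TPM across the controls. Control replicates 3 and 5 were above every knockout library, while control replicate 4 was below them all. The log2 difference was -0.053 with control replicate 1 and -0.43 without it, in the second case with a 95% interval from -1.19 to 0.33 and an adjusted limma p of 0.658. The same control replicates 3 and 5 had the highest Cd8a, at 81.2 and 86.1 TPM against 3.06 to 23.9 TPM in the other 7 libraries. The other CD8 marker measured, Cd8b1, did not follow: it stood at 4.42 and 1.31 TPM there and was highest in knockout replicate 4, at 9.88 TPM. The part of CD8+ cells in the Tox values was not tested.

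Ratios of opposed or related factors were set side by side within each library as log2 of the ratio of (TPM + 1), without a test. The added 1 pulls the ratios of low genes towards 0. The Prdm1 to Bcl6 ratio was 1.89, 0.95, 0.31 and 0.12 in knockout replicates 1 to 4 and 0.096, 0.21, 0.88, 1.08 and 1.46 in control replicates 1 to 5. Both groups thus ran from near 0 to well above 1, and the means of 0.82 ± 0.80 (SD, n = 4) and 0.74 ± 0.58 (SD, n = 5) differed by less than the spread. The Prdm1 to Bach2 ratio averaged 2.64 ± 0.31 in knockout libraries (SD, n = 4), 2.58 ± 1.12 in all controls (SD, n = 5) and 3.05 ± 0.48 in control replicates 2 to 5 (SD, n = 4), with overlap in both sets. The difference was 0.053 with control replicate 1 and -0.41 without it.

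The Id2 to Id3 ratio was 5.71, 5.17, 4.42 and 4.28 in knockout replicates 1 to 4 and 4.27, 4.80, 5.22, 5.18 and 5.25 in control replicates 1 to 5. Knockout libraries were spread more widely than control replicates 2 to 5, with an SD of 0.67 against 0.21 (n = 4 each), and the groups overlapped. The Zeb2 to Zeb1 ratio set Zeb2 against its paralogue, which is linked to memory T cells. It was 0.36, 0.48, 1.04 and 1.3 in knockout replicates 1 to 4 and 0.22, 0.30, -0.053, -0.13 and -0.095 in control replicates 1 to 5. All knockout libraries were above all control libraries, with means of 0.80 ± 0.45 (SD, n = 4) and 0.048 ± 0.20 (SD, n = 5), although knockout replicate 1, at 0.36, was close to control replicate 2, at 0.30. Without the added 1, a setting chosen after seeing the data, control replicate 1 came to 0.45 and knockout replicate 1 to 0.41, so the groups overlapped through control replicate 1, while control replicates 2 to 5, at 0.37 or below, stayed under every knockout library. Across knockout replicates 1 to 4 this ratio rose in the order of the macrophage markers, whose mean log2(TPM + 1) was 7.50, 8.18, 8.95 and 8.97. In control replicates 1 to 5 that mean was 4.51, 7.97, 6.39, 7.44 and 6.22. The part of macrophage RNA in the ratio was not tested. Zeb1 itself stood at 5.35 ± 1.25 TPM in knockout libraries and 6.41 ± 1.52 TPM in control replicates 2 to 5 (SD, n = 4 each). Its log2 difference was 0.18 with control replicate 1 and -0.22 without it, the latter with an adjusted limma p of 0.745.

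**Figure D4:**
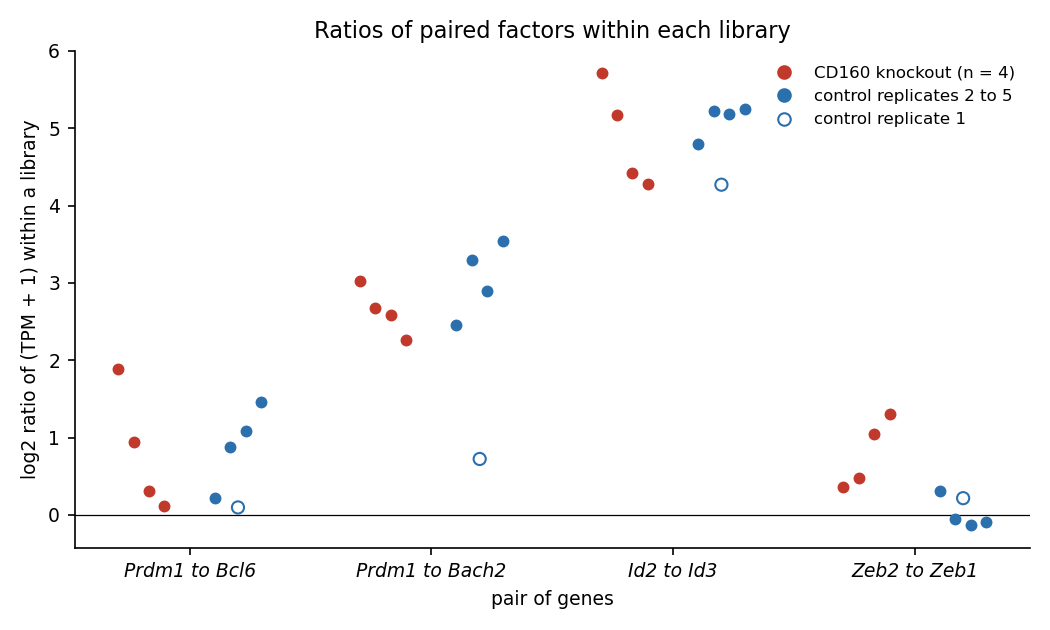
Log2 ratios of (TPM + 1) of 4 gene pairs within each library, red for knockout, filled blue for control replicates 2 to 5 and open for control replicate 1. The Zeb2 to Zeb1 ratio lies at 0.36 or above in knockout libraries and at 0.30 or below in controls, a separation from control replicate 1 that is lost without the added 1, and the other 3 ratios overlap.

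Partner genes of the factors were described by list, and 0 genes of any list passed the adjusted limma threshold in either set of libraries. The values that follow are without control replicate 1, where the median of all tested genes was -0.014. Of the E proteins and other Id proteins, 4 of 5 were tested, with 3 positive differences, 1 negative and a median of 0.13. Id1, an Id protein of many cell types, stood at 4.45 ± 0.490 TPM in knockout libraries and 2.72 ± 1.10 TPM in control replicates 2 to 5 (SD, n = 4 each), a log2 difference of 0.59 with an adjusted p of 0.306. The E protein genes Tcf3 and Tcf4 had differences of -0.022 and 0.24.

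Of the paralogues, 8 of 11 were tested, with 6 positive and 2 negative differences and a median of 0.084. Bach1, a relative of Bach2, and Tox4, a relative of Tox, had differences of 0.22 and 0.14.

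The partner factors of naive and memory cells, 7 of 8 tested, had 4 positive and 3 negative differences and a median of 0.017. Lef1, a partner of the Tcf7 product in naive T cells, had 0.48, Eomes, a T-box factor, 0.48, and Foxo1, which maintains naive cells, -0.18. The effector partner factors, 10 of 10 tested, had 3 positive and 7 negative differences and a median of -0.058. Hif1a, the factor of the hypoxia response, stood at 116.0, 92.6, 59.6 and 57.2 TPM across the knockout libraries, against 2.22, 38.3, 51.5, 62.5 and 47.7 TPM across the controls, a log2 difference of 0.65 with an adjusted p of 0.306. Knockout replicates 1 and 2 exceeded every control, as they did for Bhlhe40. Ikzf3 and Ikzf2, members of the Ikaros family, had -0.25 and -0.17.

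Of the 11 genes of tissue residency and of recirculation, 10 were tested, and 3 differences were positive and 7 negative, with a median of -0.21. Ccr7, the chemokine receptor for lymph node entry, had 0.99 and an adjusted p of 0.358, and was highest in knockout replicate 1, at 23.5 TPM. Rgs1, a regulator of chemokine signalling abundant in resident T cells, had lower values in all 4 knockout libraries, 902.8 to 1317 TPM, than in control replicates 2 to 5, 1321 to 1992 TPM. Of all tested genes, 3.01% separated in this direction. The log2 difference of Rgs1 was -0.48 with an adjusted p of 0.229, and control replicate 1 stood at 70.8 TPM, below every other library.

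Of the terminal effector and memory surface genes, 9 of 9 were tested, with 5 positive and 4 negative differences and a median of 0.068. The granzyme genes Gzma and Gzmb had -1.2 and -0.37, and Cd27, a costimulatory receptor of less differentiated cells, had 0.26. The follicular helper genes, 7 of 8 tested, had 5 positive and 2 negative differences and a median of 0.16. Cxcr5, the follicle homing receptor, stood at 5.78 ± 0.924 TPM against 2.82 ± 1.54 TPM (SD, n = 4 each), a log2 difference of 0.90 with an adjusted p of 0.207. Slamf6 and Pdcd1 had 0.44 and 0.37, while Bcl6, which directs this program, had -0.10.

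Of the cytokine genes known as targets of Maf, Prdm1 or Bhlhe40, 6 of 7 were tested and all 6 had negative differences, with a median of -0.27. Negative differences were also seen for 6013 of all 11457 tested genes. The T cell markers had 7 of 8 negative and a median of -0.23, near that of the cytokines. Il4, the Th2 cytokine that Maf activates, stood at 2.94, 4.76, 2.12 and 1.06 TPM across the knockout libraries, against 0.86, 5.68, 4.96, 18.4 and 13.04 TPM across the controls. Without control replicate 1 the groups did not overlap, as for 3.01% of tested genes in this direction. The log2 difference of Il4 was -1.55 with an adjusted p of 0.194. Ifng and Il2 had -0.44 and -0.21. With control replicate 1 included, 4 of the 6 cytokine differences were positive, against 86.7% of all tested genes.

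**Figure D5:**
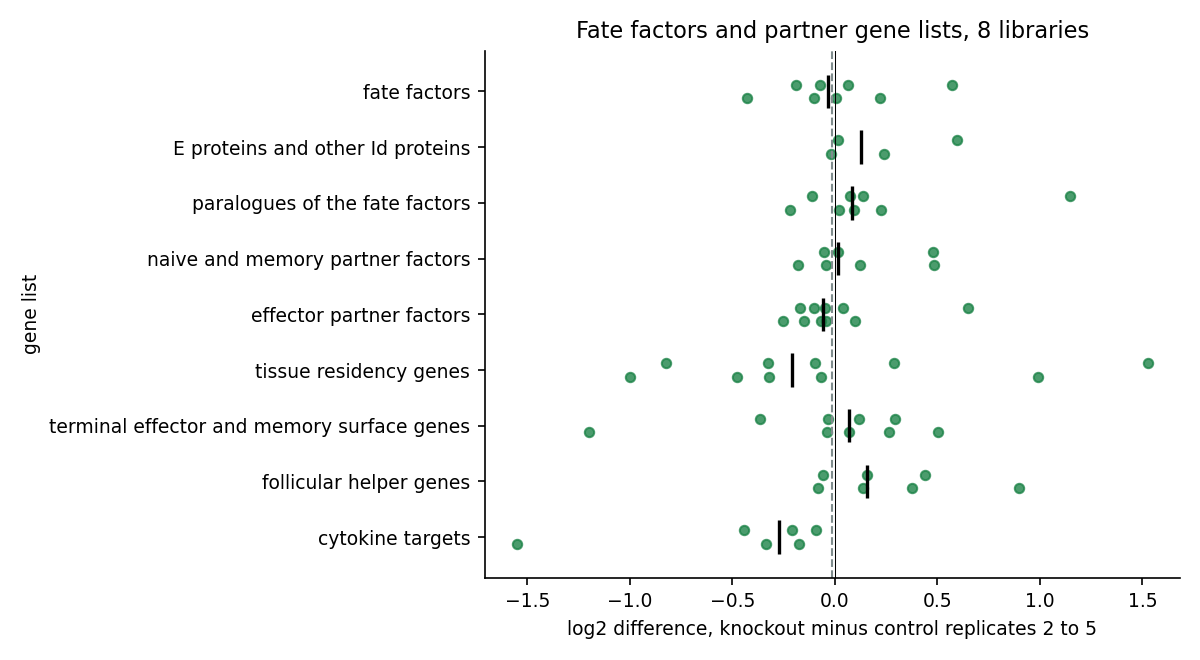
Log2 differences (knockout minus control replicates 2 to 5) of the tested fate factors and of the tested genes of 8 partner lists, 1 point per gene, with a black bar at each list median and a dashed line at the median of all tested genes, -0.014. Medians lie between -0.27 for the cytokine targets and 0.16 for the follicular helper genes.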

How the data were processed

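RNA of sorted colonic CD4+ T cells was sequenced from modified SMART-Seq2 libraries, per the labels' protocols. The deposited values are TPM per gene, scaled to the same total in each of 9 columns. Tools listed in the submitters' processing notes are RSEM 1.2.31, Bowtie2 2.2.9 and Trimmomatic 0.32, with the build GRCm38 and no settings. Sequencing depth cannot be read from TPM and is unknown, as are counting errors.

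Groups were compared on log2(TPM + 1), a scale that understates changes of low genes, by limma 3.58.1 (eBayes with a trend, R 4.3.3). Genes entered if 4 or more libraries had 1 TPM or more: 11495 with 9 libraries and 11457 without control replicate 1. P-values were adjusted over every tested gene (Benjamini-Hochberg), with a threshold of 0.05. Single genes also had an exact two-sided permutation test over 126 or 70 splits, with a smallest p of 0.00794 or 0.0286. The procedure was tested on simulated data. Figures used matplotlib 3.10.9 in Python 3.11.15.

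The factors, the partner lists and the tests were chosen with earlier results of these data known. Named partner genes are the 3 with the smallest unadjusted p in each list without control replicate 1, and Zeb1 and Cd160; results of 2 such genes are not reported here, though list counts include them. Sequences and gene coordinates are from RefSeq for GRCm38.p6. Alternatives were pseudocounts of 0.1 and 5, no filter, a filter of 5 TPM, median-of-ratios scaling, a macrophage marker covariate, library weights, the replicate number as a block, the exact test, and leaving out each library.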

Additional observations from a re-analysis of the deposited data

Results flagged for a closer look

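In 74 groups of library values (each measured factor, ratio, named partner gene and Cd160, in knockout and in control libraries), 7 had 1 library farther from the rest than Dixon's 95% limit allows. Chance gives this in about 1 of 20 groups. In 5 of the 7 the library was control replicate 1, the lowest of its group: Id2 at 164.9 TPM against 812.3 to 938.6 in the other controls, Zeb2 at 1.09 against 5.43 to 7.07, Bhlhe40 at 17.4 against 182.3 to 225.0, Tcf3 at 1.55 against 8.04 to 10.4, and Tox4 at 3.72 against 34.5 to 44.9. In the other 2 a library was the highest of its group. Ccr7 stood at 23.5 TPM in knockout replicate 1 against 6.22 to 9.17 in the other knockouts. Gzma stood at 6561 TPM in control replicate 5 against 811.6 to 2365 in the other controls.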

How the results depend on the processing

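No setting put a factor past the adjusted threshold except library weights with all 9 libraries. These gave control replicate 1 a weight of 0.0123 and the other libraries 0.70 to 2.97, and called 521 of 11495 genes. Zeb2 then had a log2 difference of 0.57 with an adjusted limma p of 0.0452. Zeb2 stayed positive in all 18 alternatives with 9 libraries, from 0.12 to 1.12, and in all 16 without control replicate 1, from 0.40 to 0.72. Its adjusted p, from limma or the exact test, ran from 0.0452 to 0.907 and from 0.116 to 0.555. The changes of filter and the exact test cannot alter the difference itself. With 9 libraries the block gave the same 1.05 as leaving out control replicate 5, so these alternatives are not all separate checks.

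With 9 libraries, signs turned under median-of-ratios scaling for Prdm1 (-0.21), Id2 (-0.13), Id3 (-0.052), Maf (-0.12) and Bcl6 (-0.26), which removes the shift of all genes. They turned under the macrophage covariate for Prdm1 (-0.48), Id2 (-0.49), Id3 (-0.48), Bhlhe40 (-0.67), Maf (-0.58) and Bcl6 (-0.79), in a fit where the median of all genes was -0.44. Library weights turned the signs of Prdm1 (-0.35), Id2 (-0.023) and Bhlhe40 (-0.17). The replicate block turned that of Tox (0.22), the same value as leaving out control replicate 5. That library has no knockout of its number and so does not enter the block difference. Leaving out 1 library gave ranges of -0.19 to 0.51 for Prdm1, -0.072 to 0.83 for Bhlhe40, -0.10 to 0.51 for Bcl6 and -0.43 to 0.22 for Tox.

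Without control replicate 1, signs turned under the macrophage covariate for Prdm1 (0.32), Id3 (-0.36), Bhlhe40 (0.34) and Maf (-0.30), where the median of all genes was 0.087. The replicate block turned the signs of Id2 (-0.014) and Bcl6 (0.13). Knockout replicate 1 and control replicate 5, which have no partner of the same number in that set, do not enter the block difference. Leaving out a further library gave -0.074 to 0.088 for Id2, -0.27 to 0.18 for Bcl6, -0.096 to 0.26 for Maf and -0.23 to 0.11 for Bhlhe40. The cause was not tested.

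Genes called over the whole table numbered 2 with 9 libraries: 1 with a pseudocount of 5 or the macrophage covariate, and 0 with no filter, the 5 TPM filter, the block or the exact test, where 1174, 397, 750 and 846 had an unadjusted p under 0.05. Leaving out a library gave 0 to 3: 3 without control replicate 1 and 0 without any of the other 8 (351 to 827 unadjusted). Without control replicate 1 there were 3: 5 with a pseudocount of 0.1, 1 with no filter or the macrophage covariate, and 0 with the block or the exact test (950 and 804 unadjusted). Leaving out a further library gave 0 to 15: 11 without knockout replicate 1, 15 without control replicate 2, 5 without knockout replicate 3 or 4, 1 without control replicate 3, and 0 without control replicate 4 or 5.

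Same-numbered libraries did not deviate together (r from -0.145 to -0.0021 over 4 pairs across genes), so the replicate block is not taken as a pairing. By median in place of mean, 5 of 9 factors kept their place in the control order, in which neighbours overlap. For the 4 ratios, dropping the added 1 or any 1 library (both added after seeing the data) moved the difference between groups by less than the larger of both group SDs. That SD is the control one, 1.12, for Prdm1 to Bach2, whose difference turned from 0.053 to -0.41 without control replicate 1 and to -0.11 without the added 1. Leaving out 1 library gave -0.29 to 0.30 for Prdm1 to Bcl6 and -0.32 to 0.16 for Id2 to Id3, so those signs turned too.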

Other observations

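Across the 8 libraries without control replicate 1, 6668 genes with a mean of at least 10 TPM were ranked by how closely their log2(TPM + 1) followed each factor. The libraries hold both groups and differ in macrophage content, and 8 points make high values common, so these are descriptions. Nearest to Zeb2 were Epb41l2 (Pearson r = 0.98, no test), Wdr41 (0.96) and Mettl9 (0.96). Nearest to Tox were Cetn2 (0.97), Apbb1 (0.96) and Ube2t (0.95). Nearest to Prdm1 were Asun (0.98), Zfp655 (0.98) and Cnot9 (0.97). Nearest to Id3 were Tmem119 (0.98), Ccl7 (0.97), a chemokine of monocytes and macrophages, and Igfbp4 (0.97).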
